A study of Sus scrofa with 16 samples.

Results

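Subcutaneous adipose tissue from 8 of the 16 pigs of the series is described here: the samples whose titles carry replicate numbers 1 to 4, 4 from a line with low residual feed intake (RFI) and 4 from a line with high RFI. They were picked by title alone, and no signal entered the choice of an array. The division by replicate number was, however, proposed when results of the same arrays were known, among them a signal for relaxin receptor 2 and opposite shifts of several gene lists in replicates 1 to 4 and 5 to 8. Values of the line contrast in replicates 1 to 4, p-values included, are therefore a description of these 8 arrays and not independent evidence. The pigs of replicates 5 to 8, another 4 per line, share no array with them, and their values are set beside the main results. Since opposite shifts of the 2 sets were known when they were divided, the comparison between the sets is a description as well. All pigs weighed 20 kg and were fed ad libitum, and the design gives 1 pig per array. The labels give no age, sex, litter or generation of selection, and there is no unselected control line, so a difference cannot be assigned to either line.

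RFI is the feed an animal eats above or below what its growth and maintenance predict, so a pig of low RFI is an efficient one. Subcutaneous fat stores triglyceride in adipocytes, which make and take up fatty acids and release them again by lipolysis, and which secrete hormones such as leptin and adiponectin. Between them lie preadipocytes and fibroblasts that lay down matrix, blood and lymph vessels, macrophages and lymphocytes. An array of whole tissue reads the sum of these cells. Fewer cells of a type and less RNA per cell cannot be told apart in it.

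The signal used throughout is the log2 processed intensity of a probe minus the 75th percentile of its array, so that 0 is the 75th percentile of all probes on that array, and a difference is low minus high RFI on the log2 scale. Of the spots, 70.2% to 80.3% were well above background on the 8 arrays and none was saturated. Pairs of arrays correlated at 0.970 to 0.989 across probes, and low-RFI replicate 3 stood lowest with a median of 0.972. All 17 measured adipocyte markers were well above background on every one of the 8 arrays; the adiponectin gene ADIPOQ read 8.15 to 8.56 in the low and 8.28 to 8.68 in the high line. The arrays lay on 4 slides, each with 1 low and 1 high sample of replicates 1 to 4 and 1 of each from replicates 5 to 8, so slide differs neither between the lines nor between the sets of replicates.

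An array probe is a short DNA of 60 bases, and 8 of them, read from the scanner files, are shown 5′ to 3′ so that it is clear what was measured. The first is the probe of largest difference, for which the files name no gene. The next 2 are probes for the relaxin receptor 2 transcript, whose receptor binds insulin-like peptide 3 and is known from testis descent, and the fourth is LYVE1, the hyaluronan receptor of lymphatic endothelium.
A_72_P202482, unnamed: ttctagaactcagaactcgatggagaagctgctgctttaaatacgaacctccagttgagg
A_72_P210572, relaxin receptor 2: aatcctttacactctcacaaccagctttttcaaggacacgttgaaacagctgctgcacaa
A_72_P656990, relaxin receptor 2: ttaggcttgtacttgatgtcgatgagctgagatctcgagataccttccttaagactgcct
A_72_P414548, LYVE1: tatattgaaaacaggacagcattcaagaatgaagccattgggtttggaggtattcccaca
Another 4 are overlapping pairs, shown because members of a pair read nearly the same stretch and cannot count as separate measurements; capitals mark the longest unbroken run that both members hold. For ZAR1L, zygote arrest 1-like, the run is 32 bases long, and for the cytochrome P450 gene CYP3A29 it is 48.
A_72_P671850, ZAR1L: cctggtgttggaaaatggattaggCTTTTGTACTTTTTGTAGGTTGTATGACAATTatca
A_72_P452533, ZAR1L: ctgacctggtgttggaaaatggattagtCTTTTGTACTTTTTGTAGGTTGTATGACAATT
A_72_P755349, CYP3A29: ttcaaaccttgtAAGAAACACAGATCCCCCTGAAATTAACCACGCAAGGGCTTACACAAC
A_72_P797432, CYP3A29: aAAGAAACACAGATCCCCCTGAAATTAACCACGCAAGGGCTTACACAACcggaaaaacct

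Few probes separated the 2 lines, but these did so by wide margins. Of 33021 probes that could be tested, 5 (0.0151%) passed limma's test after Benjamini-Hochberg adjustment over all of them at 0.05: 3 higher and 2 lower in the low line. In 627 probes (1.92%) every low-RFI array lay above every high-RFI array, and in 530 (1.62%) below. No named gene passed: 0 of 4637 (0%), the smallest adjusted p being 0.296, with 268 genes below 0.05 before adjustment. None of the 5 probes carries a gene symbol in the files, though 2 have a description that names a protein and 1 a description of a protein-like sequence.

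The unnamed probe A_72_P202482 read -1.5, -1.13, -1.14 and -1.60 in low-RFI replicates 1 to 4 and -6.68, -7.40, -7.39 and -7.04 in the high line. The ranges lie far apart, and no high-RFI array was well above background. Its difference was 5.79 (SE 0.20, n = 4 per line, limma adjusted p = 2.24e-05), which is at least 29.5-fold when the high line is set to the lowest signal among probes well above background. The probe met the filter of 4 arrays well above background through the low line alone. Its SE and p thus set a signal against background readings of the high line. Without a filter on dim probes the limma adjusted p was 8.28e-05. Among the pigs of replicates 5 to 8 the same probe spread over the whole span in both lines, with low-RFI arrays at -6.63, -0.13, -4.98 and -1.22 and high-RFI arrays at -7.62, -3.73, -2.88 and -2.05. There the difference was 0.83 (SE 1.68).

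Relaxin receptor 2 was read by 2 probes. A_72_P210572 gave -1.57, -1.91, -1.5 and -2.16 in the low line against -5.76, -5.84, -5.2 and -6.13 in the high line, a difference of 3.95 (SE 0.23, limma adjusted p = 0.000882), or 15.4-fold. The second probe, A_72_P656990, gave -2.75, -3.22, -2.31 and -3.04 against -8.30, -5.89, -6.55 and -6.39 (SE of the difference 0.48). It did not pass (limma adjusted p = 0.119), and since 1 of the 4 high-RFI arrays was well above background the high level, and with it the size of the difference, is poorly measured. In neither probe did the lines overlap. Replicates 5 to 8 kept the sign at 1.70 (SE 0.67) and 1.80 (SE 0.72), with overlap of the lines: for A_72_P210572, low-RFI replicate 5 read -3.79, below the -2.52 of high-RFI replicate 8.

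A_72_P436429 is described as a partial match (6%) to the dog germ-cell transcription factor SOHLH2 (spermatogenesis and oogenesis specific basic helix-loop-helix 2). Whether this probe reads SOHLH2 itself is not known. It gave -1.71, -1.44, -1.24 and -1.51 in the low and -3.98, -4.30, -3.64 and -3.75 in the high line. Its difference was 2.44 (SE 0.18, limma adjusted p = 0.00371). Replicates 5 to 8 took the same 2 levels without regard to line: 4 arrays, 2 of each line, read between -1.55 and -1.25, and the other 4 between -3.84 and -3.42. The difference there was -0.22 (SE 0.79).

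The 2 probes that passed in the other direction were A_72_P322928, from an ovary cDNA clone, and A_72_P179021, described as a partial match (3%) to a rat LRRGT00196 sequence. The first read -2.80, -2.50, -3.14 and -3.28 in the low line against -0.08, -0.14, -0.25 and -0.87 in the high line, a difference of -2.60 (SE 0.23, limma adjusted p = 0.0162). It went the other way in replicates 5 to 8 at 1.67 (SE 0.80), with low-RFI replicates 5 and 8 at 0.70 and 0.78 and every high-RFI array between -2.74 and -2.05. The second read -5.47, -4.86, -4.71 and -5.01 against -2.77, -3.28, -3.31 and -3.06, a difference of -1.91 (SE 0.20, limma adjusted p = 0.0450), and -0.16 (SE 0.44) in replicates 5 to 8.

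**Figure D1:**
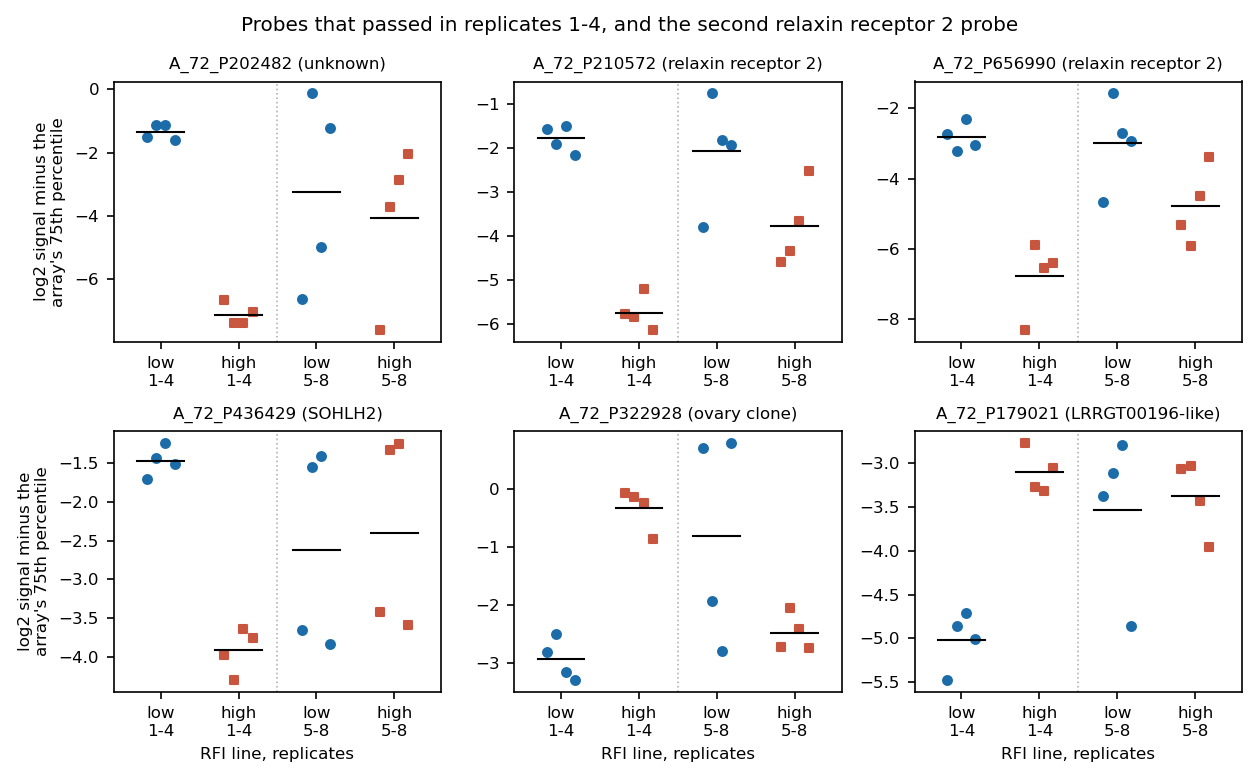
Log2 signal minus the array's 75th percentile (vertical axis) of the 5 probes that passed and of the second relaxin receptor 2 probe; each point is 1 pig, circles low RFI and squares high RFI, bars the means of 4 pigs. In replicates 1 to 4 the lines form separate groups in all 6 panels, whereas in replicates 5 to 8 they overlap in every panel. The groups of replicates 1 to 4 are tight except for the high line of A_72_P656990, at -8.30 to -5.89.

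The 3 higher probes also passed with any 1 array left out, but the lower 2 did not. A_72_P322928 lost its call when any of 6 arrays was dropped: replicate 1 (adjusted p = 0.0853), 3 (0.0852) or 4 (0.0838) of the low line, or 1 (0.072), 2 (0.108) or 3 (0.118) of the high line. A_72_P179021 lost it when any of the 8 was dropped (0.0852 to 0.196). Dropping low-RFI replicate 1, 3 or 4, or replicate 2 or 3 of the high line, thus left 3 calls. Without high-RFI replicate 1 the second relaxin receptor 2 probe passed (0.0128). With slide as a block A_72_P202482 alone passed (0.000939), and with the normexp background correction or with all 16 arrays sharing 1 estimate of the spread none did. The differences of the 3 higher probes were smaller under normexp, at 1.61 for A_72_P202482, 1.17 for A_72_P210572 and 0.97 for A_72_P436429. A_72_P656990 stood at 0.60 there, and the lower 2 at -1.81 and -0.77. This correction adds an offset of 50 to every intensity, which by itself shrinks log2 differences of dim probes. The smaller differences therefore cannot tell how firm a dim difference is. The direction in replicates 5 to 8 was the same for 3 of the 5 probes. The change of the line difference between the 2 sets of pigs did not pass for any of the 5 (limma interaction, adjusted p 0.629 to 0.720). Its unadjusted p was under 0.05 for all 5, and for 2225 of all 33021 probes. The 5 were chosen by their p in replicates 1 to 4, a contrast that is part of the interaction. Small interaction p-values are thus favoured by the choice.

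The named gene of smallest p among those higher in the low line was ZAR1L, known from the oocyte and early embryo. Probe A_72_P671850 read -2.74, -2.08, -2.73 and -3.16 in the low line and -5.33, -5.48, -4.99 and -4.14 in the high line. The lines did not overlap, and the difference was 2.31 (SE 0.33, limma adjusted p = 0.296). Its overlapping partner A_72_P452533 gave 2.34. The sign was reversed in replicates 5 to 8 at -0.96 (SE 0.46).

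ZAR1L and relaxin receptor 2 are neighbours: in the RefSeq gene order of the Sscrofa11.1 assembly ZAR1L lies 3 protein-coding genes beyond the receptor gene RXFP2. This order was looked up after the values were seen. Within 15 genes on each side, 14 genes were tested, and of these 3, ZAR1L itself among them, were higher in the low line without overlap and 0 lower, where 1.69% and 1.87% of all genes were. Since the window was placed on genes already seen to differ, nothing is read from this count. MEDAG, an adipogenesis-associated gene 5 genes before RXFP2, read 2.42 to 3.17 in the low and 1.64 to 2.23 in the high line, a difference of 0.81 (SE 0.20). MAB21L1, a developmental gene 13 genes beyond, had a difference of 1.03. FRY, the immediate neighbour, was at 0.38 (SE 0.16) with overlap, and N4BP2L1 and N4BP2L2, just past ZAR1L, were at -0.04 and -0.01. MTUS2, 13 genes before RXFP2, was at 0.97 (SE 0.54) with overlap. The remaining tested genes of the stretch lay between -0.20 and 0.16. MEDAG in replicates 5 to 8 stood at -0.44 and MAB21L1 at 0.73.

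MAB21L1 was read by 4 probes, 2 of which carry the description of another protein in the files. Its brightest probe gave -3.27, -2.88, -2.75 and -2.61 in the low line and -3.39, -3.82, -4.22 and -4.20 in the high line (SE 0.23). Differences over its probes ran from 1.03 to 1.87. Low-RFI replicates 3 and 4 were the highest on all 4 probes, and on 2 of them low-RFI replicate 1 fell below high-RFI replicate 1, so that the lines overlapped.

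Taking the 12 genes of smallest p on each side, all 24 had lines that did not overlap. The sign is then the same within each of the 4 slides by necessity, as each slide holds 1 array per line. The genes were chosen for their p, so the lack of overlap is a description. Genes higher without overlap made up 1.69% and genes lower without overlap 1.87% of the 4555 with all values. Before adjustment 158 genes (3.41%) were higher at p under 0.05 and 110 (2.37%) lower. Higher genes were 58.96% of these, 48.48% with arrays weighted by their quality and 46.81% without low-RFI replicate 4. The 24 genes differed 1.30- to 21.0-fold, with limma adjusted p from 0.296 to 0.743, so none passed.

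**Figure D2:**
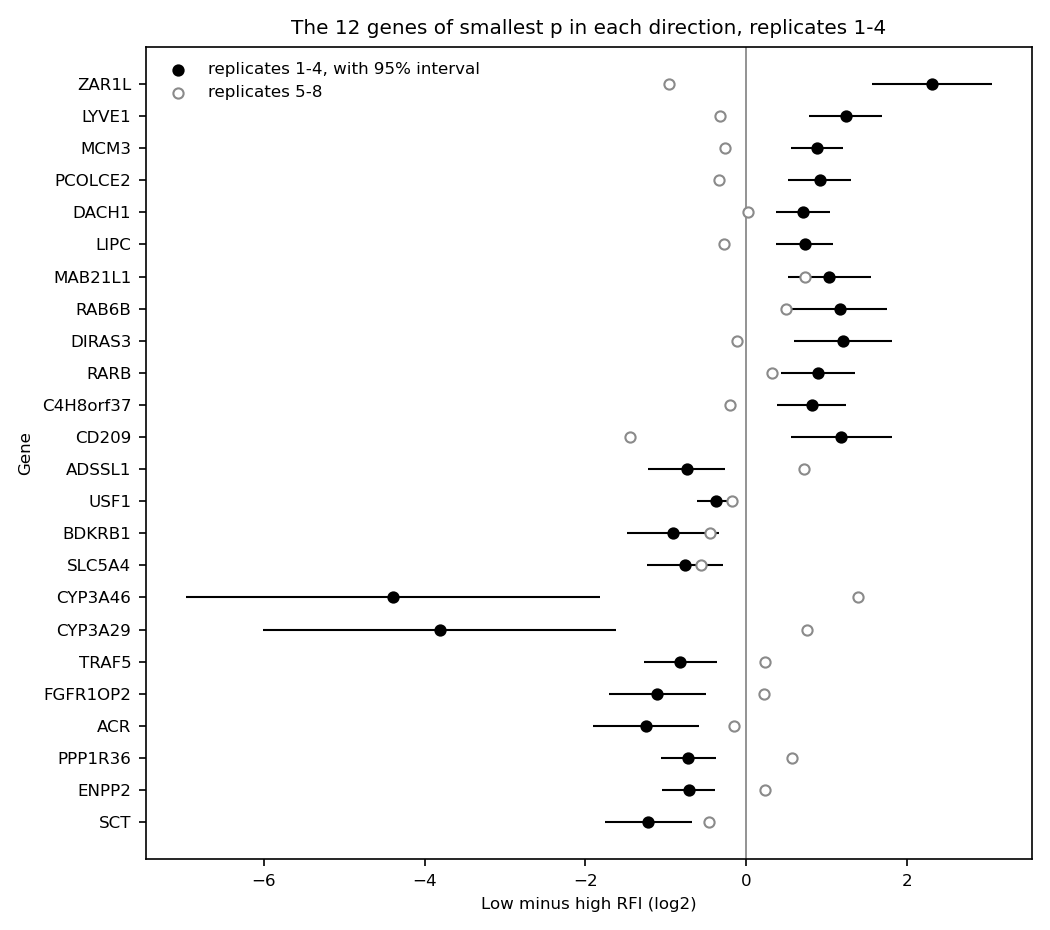
Difference between lines (low minus high RFI, log2, horizontal axis) for the 12 genes of smallest p in each direction; filled points with 95% intervals are replicates 1 to 4 and open points the same genes in replicates 5 to 8, n = 4 pigs per line each. The open points share the side of the filled ones for 9 of 24 genes and lie nearer to 0 for 23. The genes were chosen for a small p in replicates 1 to 4, so values nearer to 0 in other pigs are favoured by the choice. MCM3 and RARB turn to -0.02 and -0.09 in replicates 1 to 4 under the normexp background correction.

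LYVE1 read -2.24, -2.08, -1.76 and -2.56 in the low line and -3.11, -3.38, -3.39 and -3.71 in the high line, every low value above every high one (difference 1.24, SE 0.20, limma adjusted p = 0.296). PCOLCE2, which enhances the processing of procollagen, read 3.91, 3.26, 3.76 and 3.56 against 2.85, 2.52, 2.89 and 2.58 (difference 0.91, SE 0.17). CD209, a lectin of dendritic cells and macrophages, read -1.67, -2.30, -1.01 and -1.79 against -2.63, -3.33, -2.78 and -2.75, and its 2 probes differed by 1.18 and 1.03. In replicates 5 to 8 these genes were at -0.32, -0.33 and -1.45, all of the opposite sign.

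The remaining higher genes were of mixed function. MCM3, part of the replicative helicase, differed by 0.88 (SE 0.14), which turned to -0.02 under the normexp correction. RARB, a retinoic acid receptor, differed by 0.89 and turned to -0.09 there, both genes being dim. DIRAS3, an imprinted Ras-related gene in other mammals, differed by 1.20, the vesicle-trafficking GTPase RAB6B by 1.16, and C4H8orf37 by 0.82. DACH1, a transcriptional regulator, read -2.81, -2.79, -2.61 and -2.81 against -3.16, -3.41, -3.75 and -3.52 (difference 0.71). LIPC, hepatic lipase, was low on all arrays at -3.72 to -3.18 against -4.40 to -4.0 (difference 0.73). Over all 12 the fold ran from 1.63 to 4.95, and 4 of 12 kept the sign in replicates 5 to 8. Under the normexp correction the 12 differences ran from -0.09 to 1.03. PCOLCE2 at 1.03 and C4H8orf37 at 0.79 held their size. ZAR1L went to 0.54, CD209 to 0.35, LYVE1 to 0.33, DIRAS3 to 0.21, MAB21L1 to 0.16, DACH1 to 0.12, RAB6B to 0.03 and LIPC to 0.00. The genes that shrank were dimmer than PCOLCE2 and C4H8orf37, and the offset of this correction by itself shrinks log2 differences of dim probes.

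On the lower side the widest differences were in 2 cytochrome P450 genes of the drug- and steroid-oxidising 3A family, CYP3A46 and CYP3A29, adjacent in the gene order. CYP3A46 read -1.17, -1.70, -2.64 and -1.78 in the low line and -0.33, 1.08, 5.14 and 4.39 in the high line. High-RFI replicates 3 and 4 carried most of the difference of -4.39 (SE 1.13, limma adjusted p = 0.743), and high-RFI replicate 1 lay just above the low range. CYP3A29 read -3.13, -3.51, -3.86 and -3.53 against -1.94, -1.29, 2.67 and 1.78, a difference of -3.81 (SE 0.96).

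The probes of these genes did not behave alike. The 5 assigned to CYP3A46 differed by -4.64 to -3.43, and one of them is named CYP3A39 in the files. Of the 3 CYP3A29 probes, A_72_P755349 gave -3.81 while A_72_P797432, with which it shares the 48-base run printed above, gave -1.61. On A_72_P797432 high-RFI replicate 2 lay at -4.06 inside the low range and high-RFI replicate 1 at -3.58 just above it. The third probe, A_72_P088491, gave -1.42 (SE 0.67), and there too the lines overlapped. The difference of -3.81 without overlap is therefore that of A_72_P755349 alone. The genes are close relatives, so a probe can read more than 1 of them, and which transcript was high is uncertain. In replicates 5 to 8 CYP3A46 was at 2.01, 2.07, -1.28 and -2.50 in the low line and 1.73, -1.80, -3.73 and -1.44 in the high line, a difference of 1.39 (SE 1.39). High values thus occurred in both lines.

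**Figure D3:**
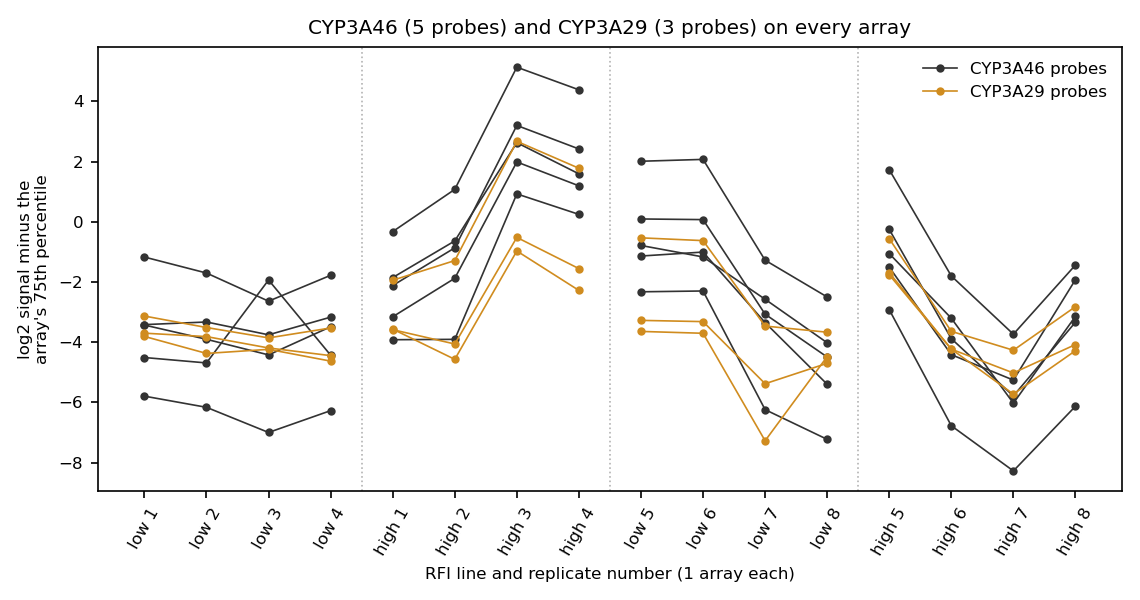
Log2 signal minus the array's 75th percentile (vertical axis) of the 5 probes assigned to CYP3A46 (dark) and the 3 assigned to CYP3A29 (orange) on each of the 16 arrays, 1 pig each; lines join the arrays of a group, which have no order, so that a probe can be followed. Among replicates 1 to 4, high-RFI replicates 3 and 4 are the highest arrays for all 8 probes. In replicates 5 to 8 high arrays occur in both lines for the CYP3A46 probes and for A_72_P755349. For A_72_P088491 and A_72_P797432 high-RFI replicate 5 is the highest there, at -1.69 and -1.76, and every low-RFI array lies at -3.27 or below.

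The other lower genes moved less. ENPP2, autotaxin, which adipocytes secrete to make lysophosphatidic acid, read -2.75, -2.74, -3.20 and -2.87 against -2.32, -1.99, -2.23 and -2.16 (difference -0.72, SE 0.14, limma adjusted p = 0.649). BDKRB1, the inducible bradykinin receptor, differed by -0.91 and TRAF5, a signalling adaptor of tumour necrosis factor receptors, by -0.82. USF1, a transcription factor that acts on lipogenic genes, had the smallest spread, at -1.57 to -1.51 against -1.25 to -1.04, and a difference of -0.38 (SE 0.10). ADSSL1, an enzyme of the purine nucleotide cycle, differed by -0.74, the sodium-coupled sugar transporter family member SLC5A4 by -0.76, and PPP1R36, a phosphatase regulatory subunit, by -0.72.

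Of the last 3 the names are less sure or the signal is dim. The probe named SCT from its accession is described in the files as a cadherin-related gene that lies beside it, and read -0.95, -0.87, -1.87 and -0.98 against 0.08, 0.35, -0.04 and -0.20 (difference -1.22, SE 0.24). The probe named FGFR1OP2 carries a description of another protein and differed by -1.11. ACR, acrosin, differed by -1.25, but was well above background on 1 of 4 low-RFI and 3 of 4 high-RFI arrays. Among all 12 the sign was kept in replicates 5 to 8 by 5.

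Gene lists of adipose function were then read, 41 lists with 767 tested genes between them, by counts and medians and without a test, since the lists were drawn up with earlier results known. No member of any list passed among single genes. Over all genes the median difference was -0.03 and the median size of a difference 0.15, against which the list medians of -0.28 to 0.38 are to be read. For 15 of the 41 lists the median kept its sign under every alternative.

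The 10 lists of lipid and energy metabolism all had medians below 0 in the low line, from -0.23 to -0.03. Fatty acid oxidation stood at -0.23, with 21 of 25 genes below 0, and the tricarboxylic acid cycle also at -0.23, with 14 of 16. Oxidative phosphorylation was at -0.12 with 28 of 32 genes below 0, branched-chain amino acid breakdown at -0.21 with 8 of 10, fatty acid synthesis at -0.13 with 13 of 16, and glycolysis at -0.09 with 14 of 19. Members without overlap were few: CRAT, 1 of 25 in fatty acid oxidation, and GPI and GAPDH lower and SLC2A3 higher of 19 in glycolysis. These are 4.0%, 10.5% and 5.26% of their lists against 1.87% (lower) and 1.69% (higher) of all genes, but rest on 1 or 2 genes each. The other metabolic lists had no member without overlap in either direction, so no excess is read from these shares.

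These shifts rested on part of the low line. Low-RFI replicate 1 was the lowest of the 8 arrays in 9 of the 10 lists, and low-RFI replicate 4 was the highest in all 10. For oxidative phosphorylation the means of the list, as deviations from each gene's mean over the 8 arrays, were -0.43, 0.03, -0.10 and 0.26 in the low line and 0.05, -0.01, 0.19 and 0.01 in the high line. The low line thus spanned the high one on both sides. Without low-RFI replicate 1 the 10 medians ran from -0.14 to 0.10, with 7 below 0 and oxidative phosphorylation at -0.03; without low-RFI replicate 3 they ran from -0.14 to 0.12; without low-RFI replicate 4 from -0.42 to -0.04. In replicates 5 to 8 all 10 medians were above 0.

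Single metabolic enzymes showed what lay behind the counts. CRAT, carnitine acetyltransferase, read 5.50, 5.95, 5.64 and 6.19 against 6.32, 6.31, 6.41 and 6.23 (difference -0.50, SE 0.16, limma adjusted p = 0.743). PCK2, mitochondrial phosphoenolpyruvate carboxykinase, was at -0.39, -0.26, 0.65 and -0.27 against 0.48, 0.83, 0.63 and 0.59 (difference -0.70), with low-RFI replicate 3 inside the high range. Pyruvate carboxylase, PC, differed by -0.44, and the peroxisomal thiolase probe ACAA1, whose description names another gene, by -0.37. GPAT3, which starts triglyceride assembly, went the other way at 0.62, and so did the glucose transporter SLC2A3 at 0.65, which turned to -0.05 under the normexp correction. Within fatty acid synthesis MLXIPL differed by -0.43 and the desaturase SCD by -0.29, and fatty acid synthase, FASN, by -0.14 (SE 0.14).

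Adipocyte markers had a median of -0.14 (14 of 17 below 0), which was 0.03 with arrays weighted and nearly 0 without low-RFI replicate 3; it was 0.17 in replicates 5 to 8. Leptin, LEP, the satiety hormone of fat, read 2.40, 3.41, 1.48 and 3.51 in the low and 3.20, 3.44, 3.20 and 3.32 in the high line (difference -0.59, SE 0.41), low-RFI replicates 1 and 3 being the low ones. It went the other way in replicates 5 to 8, with 2.28 to 3.02 in the low line above 1.30 to 2.12 in the high line (0.89, SE 0.22). RARRES2, the adipokine chemerin, was at 0.54 and EBF2, a regulator of preadipocyte identity, at 0.65. AQP7, the glycerol channel, differed by -0.38, and FABP3, a fatty acid binding protein, by -0.24. UCP3, listed with heat production, was at 5.57, 6.2, 3.06 and 6.08 against 6.59, 6.10, 6.02 and 5.95, low-RFI replicate 3 again the one apart; it was chosen after its values were seen.

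**Figure D4:**
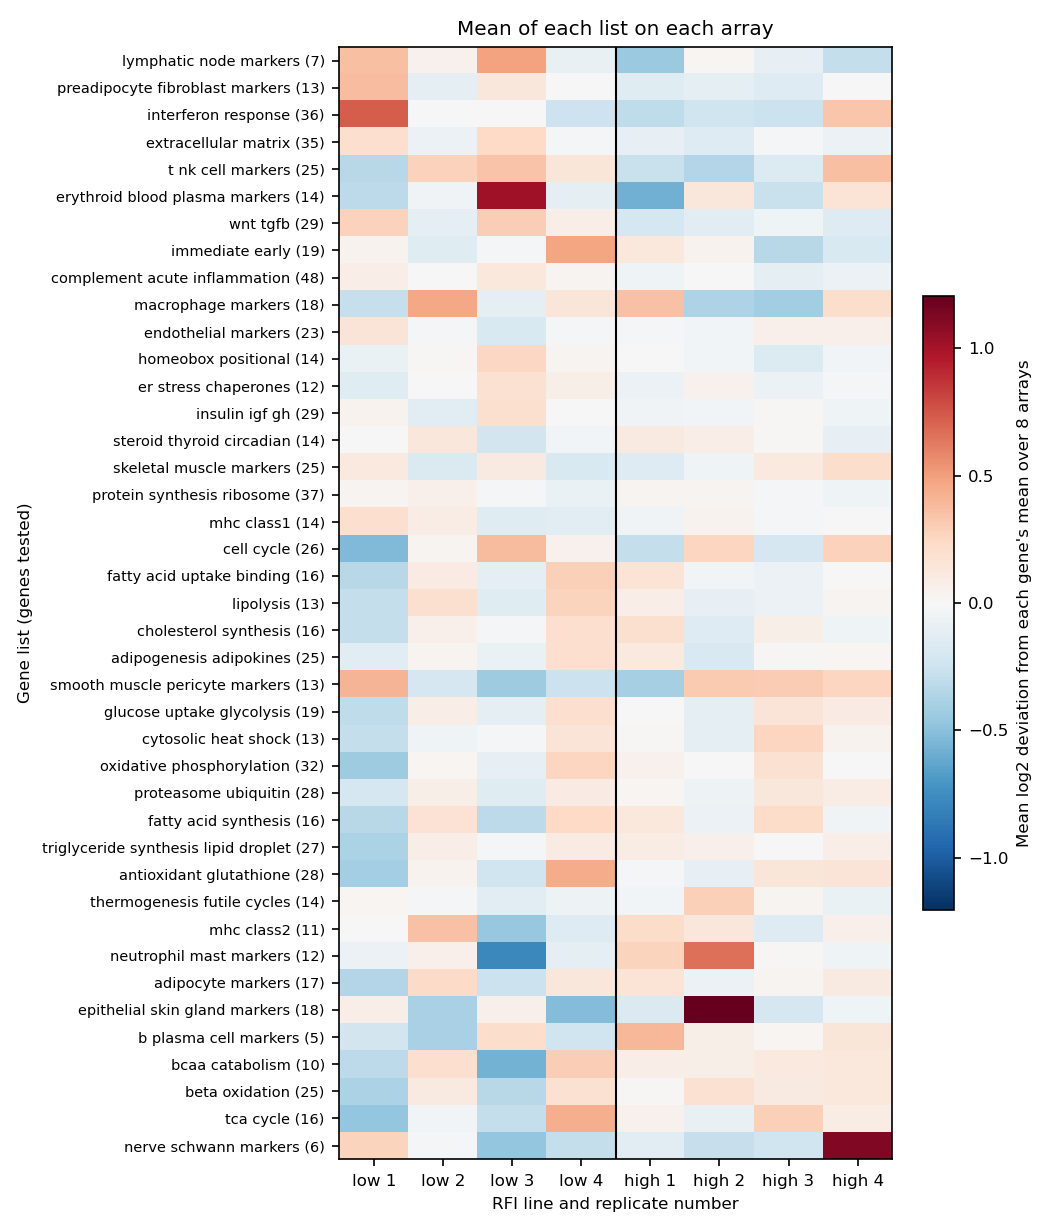
Mean of each of 41 gene lists (rows, number of genes tested in brackets) on each of the 8 arrays (columns, low RFI left of the line), as the log2 deviation from each gene's mean over the 8 arrays; rows are ordered by median difference. Low 1 is the lowest array in most metabolic lists, and single arrays stand out for interferon response (low 1), blood and plasma (low 3), epithelium (high 2) and nerve (high 4).

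Protein turnover and stress genes followed in part. The proteasome and ubiquitin list had a median of -0.12, with 21 of 28 genes below 0 and 3 without overlap, PSMA6, PSMC1 and UBE2D1 (11.1% of the list, against 1.87% of all genes). The median was -0.04 without low-RFI replicate 1, -0.01 under the normexp correction and 0.05 in replicates 5 to 8. PSMC1, an ATPase of the proteasome cap, read 4.79, 5.2, 5.16 and 5.43 against 5.61, 5.58, 5.69 and 5.54 (difference -0.46, SE 0.15, limma adjusted p = 0.743). The heat shock list was at -0.09, with 11 of 13 below 0 and DNAJB1, a co-chaperone of HSP70, at -0.41. Among antioxidant genes 19 of 28 were below 0, SOD1 at -0.24. MT1A, a metal-binding metallothionein, was the exception at 2.35 (SE 1.04), with 0.11, 0.99, 4.17 and 1.85 against -1.96, -0.37, -1.75 and 1.81 and overlap through high-RFI replicate 4. The ribosomal list sat at 0.00, with 18 of 37 above 0.

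Immediate early genes, which cells switch on within minutes of a stimulus, tilted up in a few members only. FOS read 1.60, 2.58, 0.66 and 4.55 in the low line and 1.04, -0.23, -0.75 and -0.11 in the high line (difference 2.36, SE 0.77, limma adjusted p = 0.743), with low-RFI replicate 4 the highest and low-RFI replicate 3 inside the high range. CYR61 was at 2.20, 2.02 and 2.54 in low-RFI replicates 1, 2 and 4 against 1.20 to 1.77 in the high line, its spot on low-RFI replicate 3 being dropped as an outlier (difference 0.71). Over the list 11 of 19 were above 0, with a median of 0.09, which was -0.07 without low-RFI replicate 4, -0.03 without low-RFI replicate 3 and -0.09 with arrays weighted.

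Matrix and fibroblast lists had medians above 0. For extracellular matrix it was 0.18 (22 of 35 above 0), with FBN1, LUM and COL14A1 higher free of overlap (8.82%, against 1.69% of all genes) and 0 members lower without overlap (1.87% of all genes). The median was -0.07 in replicates 5 to 8. FBN1, fibrillin of elastic microfibrils, read 1.32, 0.20, 1.64 and 0.32 against 0.03, -0.23, -0.11 and -0.26 (difference 1.01, SE 0.32, limma adjusted p = 0.743). LUM, lumican, a proteoglycan of collagen fibrils, read 4.16, 3.82, 3.95 and 4.0 against 3.09, 3.30, 3.68 and 3.81 (0.51). FN1, fibronectin, differed by 0.73 with overlap, and the main fibrillar collagen chain COL3A1 by 0.00 (SE 0.12). Low-RFI replicates 1 and 3 were the high ones for FBN1 and FN1; without low-RFI replicate 1 the list median was 0.02, without low-RFI replicate 3 0.10, and with arrays weighted 0.00.

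Preadipocyte and fibroblast markers were divided, 8 of 13 above 0 and 5 below, from -0.54 to 1.46, the highest being PI16. Their median of 0.32 was 0.11 without low-RFI replicate 1, 0.01 without low-RFI replicate 3 and -0.16 in replicates 5 to 8. PI16, a marker of early fibroblast-like progenitors, read 0.21, -2.31, -0.49 and -0.94 against -2.45, -2.38, -2.17 and -2.37 (difference 1.46, SE 0.46), so that the high line was uniform and low-RFI replicate 2 lay within it. Among Wnt and TGF-beta pathway genes 21 of 29 were above 0 (median 0.10, and -0.09 in replicates 5 to 8). The secreted Wnt antagonists DKK2 and DKK3 led them: DKK2 at 1.25, 0.34, 1.60 and 1.0 against 0.38, -0.26, 0.12 and -0.39 (1.09, SE 0.28), and DKK3 at 1.36. Both kept the sign in replicates 5 to 8, at 0.27 and 0.65, DKK3 without overlap. Lymphatic markers, LYVE1 among them, had a median of 0.38 with 6 of 7 above 0, against -0.38 with 1 of 7 above 0 in replicates 5 to 8, and CCL21, a chemokine of lymphatic vessels, was at 1.19 with overlap. The lymphatic median was 0.27 to 0.43 without a single array, but 0.06 under the normexp correction and 0.12 with arrays weighted.

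Endothelial markers split. TEK, the angiopoietin receptor, read 0.51, 0.74, 0.69 and 0.58 against 0.39, -0.19, -0.04 and -0.58 (difference 0.74, SE 0.20), while NOS3, endothelial nitric oxide synthase, read 3.64, 3.17, 3.23 and 3.22 against 3.71, 3.76, 3.65 and 3.97 (-0.46, SE 0.15). Neither overlapped and neither passed (limma adjusted p = 0.743 for both). ADM was also higher without overlap, which makes 2 of 23 genes higher (8.70%) and 1 lower (4.35%). Of all genes 1.69% and 1.87% were, and nothing is read from so few. Over the 23 genes the median was 0.05. Insulin, IGF and growth hormone genes sat at 0.02, and the receptor IGF1R, without overlap at 0.21, turned to -0.15 under the normexp correction.

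Interferon-response genes were above 0 in 30 of 36, with a median of 0.20. No member was free of overlap. Of all genes 1.69% were higher and 1.87% lower without overlap, so in 36 genes nothing is read from this. MX1, an antiviral GTPase, read 4.53, 2.50, 4.21 and 2.41 against 2.87, 0.62, 2.23 and 4.31 (difference 0.91, SE 0.80), and ISG15 read 5.91, 3.33, 3.97 and 3.25 against 2.83, 3.46, 3.35 and 4.61 (0.55, SE 0.61); both were chosen after their values were seen. Low-RFI replicate 1 held the highest list mean at 0.73 and high-RFI replicate 4 the next at 0.33, and the other 6 arrays lay between -0.31 and 0.00. Without low-RFI replicate 1 the median was 0.05. The cytosolic RNA sensor DDX58 differed by 0.76 and the chemokine CXCL9 by -0.84. In replicates 5 to 8 all 36 genes were below 0, with a median of -0.47.

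T and NK cell markers were above 0 in 18 of 25 (median 0.17), but the median was -0.21 under the normexp correction and -0.61 in replicates 5 to 8, with 1 of 25 above 0. NCR3, a receptor of NK cells, was at -4.76, -2.95, -3.21 and -3.61 against -5.71, -6.42, -4.15 and -4.41 (1.54, SE 0.57). Macrophage markers were divided, 10 of 18 above 0 and 8 below, from -1.03 to 1.01. Their median of 0.05 was -0.04 under the normexp correction and -0.07 without high-RFI replicate 3. CD163, the haemoglobin scavenger receptor, read 1.21, 1.73, 2.79 and 3.0 against 1.43, 0.58, 1.45 and 1.22 (1.01, SE 0.41), and the complement component C1QA differed by 0.73. In replicates 5 to 8 CD163 and C1QA were at -0.85 and -1.10. Neutrophil and mast cell markers had 7 of 12 below 0 and 5 above. S100A9, a calcium-binding protein of neutrophils, read -2.91, -1.82, -3.53 and -1.35 against -0.91, -1.07, -0.84 and -1.60 (-1.30, SE 0.45), and S100A12 differed by -1.35 without overlap, low-RFI replicate 3 at 0.17 being far below the other arrays. That list's median of -0.14 was 0.00 without low-RFI replicate 3.

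Markers of cells outside adipose tissue moved with single arrays. High-RFI replicate 2 had the highest epithelial list mean, 1.21 against -0.53 to 0.08 on the other 7 arrays; EPCAM, an epithelial adhesion molecule, read -0.12 there against -5.75 to -3.70 elsewhere (difference -2.0), and CDH1, E-cadherin, read -1.32 against -5.59 to -3.87 (-1.34). Without this array the list median went from -0.15 to 0.01. High-RFI replicate 4 had a nerve and Schwann cell mean of 1.11; without it the list median went from -0.28 to 0.17. Low-RFI replicate 3 had a blood and plasma mean of 1.02, with albumin, ALB, at 0.85 against -4.78 to -3.73 on the others and transthyretin, TTR, at -0.61 against -6.73 to -3.19. ALB was chosen after its values were seen. The part of these cells or proteins in the differences above was not tested.

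Skeletal muscle markers had a median of 0.00 here and of -0.27 under the normexp correction; 12 of 25 were above 0, and list means ran from -0.19 to 0.12 in the low and -0.15 to 0.22 in the high line. Of the 35 on the array 10 were too dim to test. The ranges of the lines overlapped. The median was 2.43 in replicates 5 to 8, with 24 of 25 above 0, and there TCAP, a protein of the sarcomere, read 6.52 in low-RFI replicate 8 against -1.61 to -0.18 in the other low-RFI arrays.

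**Figure D5:**
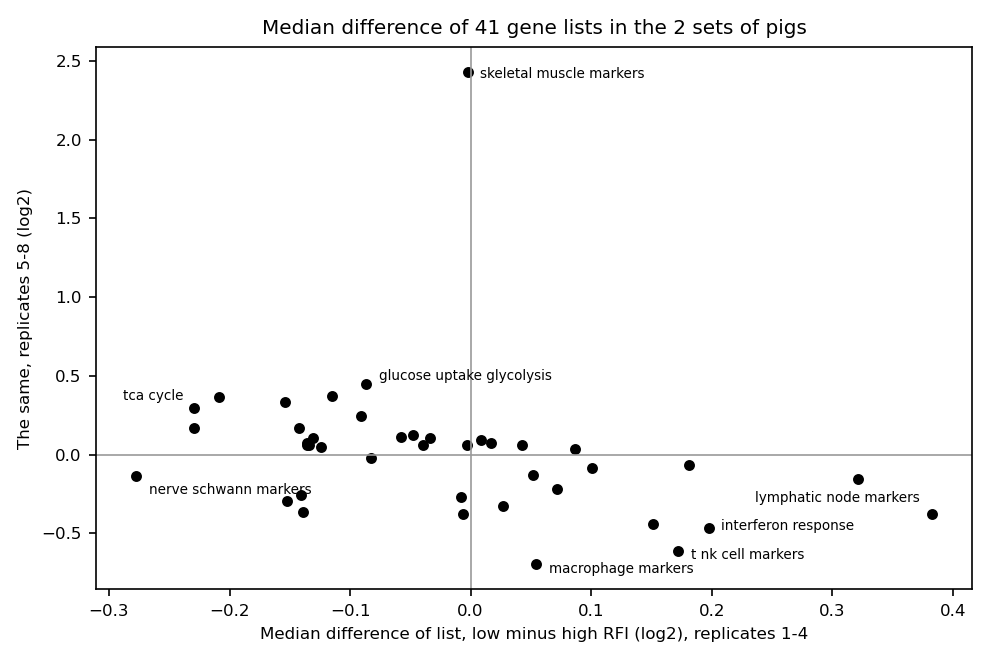
Median difference between lines (low minus high RFI, log2) of each of 41 gene lists in replicates 1 to 4 (horizontal axis) and in replicates 5 to 8 (vertical axis), n = 4 pigs per line in each. Skeletal muscle markers sit at 0.00 on the horizontal and 2.43 on the vertical axis, and 30 of the 41 lists have medians of opposite sign. Opposite shifts of several lists were known when the sets were divided.

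The pigs of replicates 5 to 8 are other animals, but the 2 sets were divided with opposite shifts of several gene lists known. Shared or opposite signs are therefore a description and not an independent check. No gene passed in replicates 5 to 8 either (limma, 0 of 4637, 280 at an unadjusted p under 0.05). Of all genes 2111 (45.5%) had the same sign in both sets, and of the 268 genes below 0.05 before adjustment in replicates 1 to 4, 39.9% did. None of the 24 genes of smallest p separated the lines without overlap in the same direction there. The share of all genes that did so in replicates 5 to 8 was not counted, so nothing is read from this. MAB21L1 kept its sign at 0.73 against 1.03, as did SLC5A4 at -0.56 against -0.76. The brightest MAB21L1 probe read -2.27, -3.05, -2.51 and -2.61 in the low line and -2.95, -3.47, -3.59 and -3.36 in the high line.

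Whether the line difference itself changed between the 2 sets was tested as an interaction over all 16 arrays. No gene and no probe passed (limma, smallest adjusted p 0.399 over genes and 0.454 over probes), with 363 genes and 2225 probes below 0.05 before adjustment. Blocking by slide let 1 gene pass, FOLH1B (adjusted p = 0.0235), named here because that count is 1 and not by the rule for named genes. Of the 24 genes 15 had an unadjusted p under 0.05, beside 363 of all 4637 genes, and their smallest adjusted p was 0.399. The 24 were chosen for a small p in replicates 1 to 4, a contrast that is part of the interaction. Small interaction p-values are thus favoured by the choice, and nothing is read from the 15. Nothing described for replicates 1 to 4 is therefore shown to be particular to them. The 95% interval of a gene in replicates 1 to 4 reached 0.43 to either side of its difference at the median, and for 3767 of 4637 genes (81.2%) the interval left out a 2-fold difference in either direction.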

How the data were processed

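Intensities were read from the deposited scanner files of 1-colour Agilent arrays, 1 pig per array, labelled with Cy3 from 150 ng of total RNA. Per the file headers, Feature Extraction 10.7.3.1 made the deposited processed intensity by background subtraction and detrending within an array; the mean and local background intensities deposited beside it are uncorrected. The deposited value table holds log2 values that equal the log2 processed intensity minus the column median over 28963 listed spots; it served as an alternative. The submitters' processing notes list R 2.10.0.

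Outlier spots were dropped (0.126% of values in the kept probes), spots of a probe averaged, and log2 values set to each array's 75th percentile. Probes had to be well above background on 4 or more of the 8 arrays, with 3 or more values per line; 33021 probes were kept, and 22349 of them have no gene symbol. Symbols came from the files or from accessions looked up in the RefSeq table of Sscrofa11.1; 191 probes with conflicting names were left unnamed. A gene is its brightest kept probe. The test between lines was limma's (version 3.58.1, R 4.3.3), two-sided, with Benjamini-Hochberg adjustment over all probes or genes at 0.05, and the procedure was tested on simulated data. The number of arrays limits the precision.

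The samples, gene lists and rule for named genes were chosen with earlier results of these data known. The rule takes the 12 genes of smallest p per direction where fewer than 20 pass, up to 3 passing or else the 2 smallest-p members of each list, and passing probes without a symbol; some genes it picks are given only in counts. Replicate numbers were checked for pairing by the correlation of same-numbered deviations (-0.19, -0.05, -0.08 and -0.05); they do not pair the samples. Alternatives were quantile scaling, normexp (offset 50), the deposited table, 2 other filters, the mean of a gene's probes, slide or replicate as a block, array weights, all 16 arrays in 1 fit, and leaving out each array.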

Additional observations from a re-analysis of the deposited data

Results flagged for a closer look

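Values of 1 array that lay far from the other 3 of its line, by Dixon's criterion at 95%, were looked for in 294 groups of 4 values, and 13 were found; chance alone marks about 1 group in 20. Low-RFI replicate 3 stood apart for DACH1 (-2.61 against -2.81 to -2.79), SCT (-1.87 against -0.98 to -0.87), PCK2 (0.65 against -0.39 to -0.26) and the B-cell gene VPREB3 (0.96 against -1.44 to -1.07). Low-RFI replicate 1 stood apart for PRKAR1A (2.93 against 3.56 to 3.59), NOS3 (3.64 against 3.17 to 3.23) and MYL9 (5.39 against 4.44 to 4.57). High-RFI replicate 2 did so for BDKRB1 (-4.38 against -3.59 to -3.44) and the epithelial list mean (1.21 against -0.20 to -0.05), and high-RFI replicate 1 for the smooth muscle and pericyte list mean (-0.40 against 0.26 to 0.31). High-RFI replicate 4 did so for CD74 (2.90 against 2.71 to 2.74), the interferon list mean (0.33 against -0.31 to -0.24) and the nerve list mean (1.11 against -0.27 to -0.13).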

How the results depend on the processing

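Of the alternatives, quantile scaling and array weights left the 5 probes called, and the deposited table, which does not list A_72_P202482, 4. The count was 4 without a filter on dim probes, 3 with probes well above background on all 8 arrays, 1 with slide as a block, 0 with normexp and 0 with all 16 arrays in 1 fit. Leaving out 1 array gave 3 to 5. With the replicate number as a block, which does not pair the samples, 2 probes were called and no named gene was. No gene passed in any of these fits; the smallest adjusted p was 0.0605, without high-RFI replicate 4. The interaction between replicates 1 to 4 and 5 to 8 gave 1 gene with slide as a block and 0 with quantile scaling. Under normexp 7 named genes turned sign: MCM3 -0.0236, RARB -0.0886, SLC2A3 -0.0539, IGF1R -0.15, DIO3 -0.18, RPL32 0.0655 and CDH19 -0.0896. List medians under normexp moved to -0.19 for steroid, thyroid and circadian genes, 0.12 for ribosomal, -0.00778 for complement, 0.15 for preadipocyte, -0.21 for T and NK cell, 0.0644 for lymphatic and -0.27 for skeletal muscle genes. With arrays weighted they moved to -0.000292 for matrix, 0.12 for preadipocyte and 0.12 for lymphatic genes. Without 1 array the medians ranged from 0.0163 to 0.23 for matrix genes, from -0.01 to 0.16 for homeobox genes, from 0.00548 to 0.43 for preadipocyte genes and from 0.0219 to 0.0926 for complement genes. The offset of the normexp correction by itself shrinks log2 differences of dim probes. The cause of these changes was otherwise not tested. With 4 pigs per line, dim probes and those without a symbol limit what can be seen.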
